A study of Mus musculus with 28 samples.

Results

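The comparison described here is that of c-Kit+ with Thy1+ spermatogonia in mice lacking Scml2, and its members are the 4 H3K27ac libraries of these cells, 2 per fraction, out of 28 libraries in the series. All 4 came from testes of C57BL/6 mice of the genotype Scml2-KO at postnatal day 7 (P7), and the labels name the cells as Thy1+ spermatogonia or c-Kit+ spermatogonia, isolated by MACS (magnetic sorting) or STA-PUT (sedimentation). Both fractions carry the knockout, so a difference between them is a difference between fractions within the mutant. Neither the construction of the allele nor whether the replicates came from separate mice or litters is given in the sources used here, and the p-values below measure only the spread between these libraries, which may be technical. The 4 wild-type libraries of the same fractions, strain and age, and 4 knockout libraries of adult pachytene spermatocytes and round spermatids, were used as libraries that had no part in choosing the regions.

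Acetylation of lysine 27 of histone H3 (H3K27ac) marks active promoters and enhancers, and ChIPmentation is a form of chromatin immunoprecipitation in which a transposase inserts the sequencing adapters. In the young testis, Thy1 is a surface marker used to enrich undifferentiated spermatogonia, including the stem cells that respond to GDNF, whereas the receptor tyrosine kinase c-Kit appears when retinoic acid drives spermatogonia into differentiation. SCML2 is a germline protein related to the Polycomb group, known for its part in silencing somatic genes in germ cells and in shaping their histone marks. Both sorts enrich cells and do not purify them, and in bulk libraries fewer cells of a type and less acetylation per cell cannot be told apart.

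The promoters below carry the results that follow and are shown so that their base composition can be compared. Each is the RefSeq window of 300 bases (250 before to 50 after a transcription start, build GRCm38.p6), written 5′ to 3′ on the gene's strand, with every CpG dinucleotide in capitals. Kit encodes the receptor that defines the sort. Mgst1 (a membrane-bound glutathione transferase) and Slc25a34 (a mitochondrial carrier) lay in regions with more signal in c-Kit+ cells. Tgfbr2 (the type II TGF-β receptor) and Glipr2 lay in regions with less, and Gfpt2 (hexosamine synthesis) and Des (desmin, a muscle intermediate filament) had a promoter peak in both Thy1+ libraries and in neither c-Kit+ library. Values given below are those of whole regions or of peaks within 1000 bp of a start. Over the printed windows themselves, Mgst1 had no peak in Thy1+ replicate 1 and Gfpt2 none in Thy1+ replicate 2.
Kit (chr5:75574741-75575040, + strand): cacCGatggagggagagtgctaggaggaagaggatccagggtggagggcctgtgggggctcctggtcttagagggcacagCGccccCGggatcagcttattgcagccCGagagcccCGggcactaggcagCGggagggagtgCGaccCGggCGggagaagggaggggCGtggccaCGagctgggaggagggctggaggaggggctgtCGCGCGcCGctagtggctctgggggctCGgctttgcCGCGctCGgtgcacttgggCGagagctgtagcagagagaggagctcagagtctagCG
Mgst1 (chr6:138141337-138141636, + strand): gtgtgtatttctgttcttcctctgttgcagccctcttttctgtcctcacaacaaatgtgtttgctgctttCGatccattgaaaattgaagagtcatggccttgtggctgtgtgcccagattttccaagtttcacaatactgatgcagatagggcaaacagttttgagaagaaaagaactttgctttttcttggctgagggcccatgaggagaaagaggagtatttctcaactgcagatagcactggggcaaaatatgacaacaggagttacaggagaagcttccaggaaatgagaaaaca
Slc25a34 (chr4:141623785-141624084, − strand): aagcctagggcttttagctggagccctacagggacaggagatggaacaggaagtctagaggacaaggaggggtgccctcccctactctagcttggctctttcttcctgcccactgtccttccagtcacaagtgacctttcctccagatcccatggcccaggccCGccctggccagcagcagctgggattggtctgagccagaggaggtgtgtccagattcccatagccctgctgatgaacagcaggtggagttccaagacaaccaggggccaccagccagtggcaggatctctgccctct
Tgfbr2 (chr9:116175314-116175613, − strand): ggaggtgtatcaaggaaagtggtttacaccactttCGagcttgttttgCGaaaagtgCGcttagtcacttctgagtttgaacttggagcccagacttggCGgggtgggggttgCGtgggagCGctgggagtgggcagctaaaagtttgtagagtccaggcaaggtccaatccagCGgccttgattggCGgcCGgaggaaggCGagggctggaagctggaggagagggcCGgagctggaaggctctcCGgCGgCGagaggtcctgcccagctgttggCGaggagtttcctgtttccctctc
Glipr2 (chr4:43957452-43957751, + strand): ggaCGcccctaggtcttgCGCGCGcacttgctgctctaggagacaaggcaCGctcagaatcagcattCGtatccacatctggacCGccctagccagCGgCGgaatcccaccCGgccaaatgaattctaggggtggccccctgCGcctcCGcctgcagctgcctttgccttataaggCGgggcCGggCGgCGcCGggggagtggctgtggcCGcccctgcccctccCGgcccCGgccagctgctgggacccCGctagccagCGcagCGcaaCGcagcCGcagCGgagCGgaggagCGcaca
Gfpt2 (chr11:49793905-49794204, + strand): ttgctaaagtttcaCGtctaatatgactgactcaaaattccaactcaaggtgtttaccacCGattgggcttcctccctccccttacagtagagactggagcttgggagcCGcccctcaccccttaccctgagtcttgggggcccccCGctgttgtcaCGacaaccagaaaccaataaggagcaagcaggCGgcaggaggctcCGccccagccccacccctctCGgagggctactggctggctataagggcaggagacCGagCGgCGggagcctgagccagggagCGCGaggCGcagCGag
Des (chr1:75360042-75360341, + strand): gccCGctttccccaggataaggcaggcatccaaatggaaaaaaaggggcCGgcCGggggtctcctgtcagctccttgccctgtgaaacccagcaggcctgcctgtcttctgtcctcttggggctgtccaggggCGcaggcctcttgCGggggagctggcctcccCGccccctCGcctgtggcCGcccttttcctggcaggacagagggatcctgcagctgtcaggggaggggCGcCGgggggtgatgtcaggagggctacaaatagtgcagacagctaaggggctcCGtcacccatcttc

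The windows of Mgst1 and Slc25a34 each held 1 CpG, those of Tgfbr2 and Gfpt2 15, that of Glipr2 28, that of Des 11 and that of Kit 21. Over the promoter sets defined below, the median window held 4 CpGs for genes with a promoter peak in both c-Kit+ libraries and neither Thy1+ library (88 windows, 60 of 79 genes matched by symbol). It held 8 for the reverse pattern (347 windows, 243 of 318 genes), 22 for genes called in all 4 libraries (11780 windows) and 7 over all 32851 windows. Motifs were searched on both strands as plain letters. The NR5A1 (SF-1) motif CAAGGTCA was found in 4.55% of the c-Kit+ windows (4 of 88), 0.865% of the Thy1+ windows (3 of 347) and 1.56% of all windows. The AP-1 motif TGANTCA was found in 6.82%, 6.34% and 7.81%, the TEAD motif GGAATG in 19.3%, 15.0% and 14.7%, the GATA motif AGATAA in 7.95%, 8.93% and 11.2%, and the CRE motif TGACGTCA in 0, 1.15% and 1.79%. Several windows of a set overlap each other or belong to 1 gene, the counts are small, and a match is a description of letters only. Of the 7 windows printed above, that of Gfpt2 held a match, to the AP-1 motif.

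Peak numbers split the libraries by replicate and not by fraction. Outside the regions called in any input library, 34185 and 20964 peaks were called in Thy1+ replicates 1 and 2, and 35779 and 22534 in c-Kit+ replicates 1 and 2. Replicate 1 of each fraction had a background height of 0.975 (Thy1+) or 1.11 (c-Kit+), against 0.564 and 0.715 in replicate 2. The number of reads is unknown, and this background is the only trace of depth in the tables. The c-Kit+ to Thy1+ log2 ratio of peak numbers was 0.08, the promoter share of peaks differed by -2.76 percentage points and the intron share by 3.89, with exact 2-sided permutation p of 0.667 for each. Over 7 such measures the adjusted p ranged from 0.778 to 1, and 2 libraries against 2 cannot give a p below 0.333. Leaving out Thy1+ replicate 1 moved the promoter difference to -14.1 points and leaving out Thy1+ replicate 2 moved it to 8.58.

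The promoters of germ cell and somatic marker genes were read as a check of the labels. Of 9 germ cell genes with a known start, 8 and 1 had a promoter peak in Thy1+ replicates 1 and 2, and 7 and 2 in c-Kit+ replicates 1 and 2, with summed fold enrichments of 63.8 and 7.675 against 40.2 and 11.7. Dazl, an RNA-binding protein of germ cells, was called in all 4, with fold enrichments (height over the library's background) of 13.2 and 7.67 for Thy1+ against 8.51 and 5.83 for c-Kit+. Ddx4, the germ cell helicase, was called in replicate 1 of each fraction, at 8.10 and 5.20. Tex101, another germ cell surface marker, was at 0 peaks in all 4 libraries. Somatic markers were also present: Gata4 and Inha, genes of Sertoli cells, were called in all 4 libraries, as were Nr5a1 of steroidogenic cells and Tcf21 of stromal cells. Promoters of somatic marker genes thus carried peaks in both fractions, and germ cell promoters had few calls in replicate 2 of each. Whether the fractions are as labelled could not be settled from these peak tables, and they are called below by their sort, c-Kit+ and Thy1+.

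The somatic marker lists differed in how the 2 fractions compared. Sertoli cell promoters were called in 8 and 4 (Thy1+) and 10 and 6 (c-Kit+) of 14, with summed fold enrichments of 82.5 and 38.4 against 71.4 and 50.1, and Rhox5, Gata1, Cldn11 and Dhh were at 0 peaks throughout. Leydig cell promoters were called in 3 and 2 against 5 and 3 of 7, with sums of 21.8 and 13.4 against 34.1 and 19.2, and Cyp17a1 and Hsd3b1 were at 0 peaks at their promoters. Peritubular myoid promoters were called in 5 and 4 against 3 and 1 of 6, with sums of 43.5 and 24.3 against 16.1 and 5.25. Of the macrophage and blood genes, 4 and 2 of 8 were called in Thy1+ cells and 0 in either c-Kit+ library, where the defining gene Ptprc was at 0 peaks, and the sums were 26.3 and 10.9 against 0 and 0. Adgre1, Csf1r, Lyz2 and Cd52 were at 0 peaks in all 4. Endothelial promoters were called in 3 and 2 against 1 and 1 of 6, with sums of 17.2 and 10.9 against 6.62 and 6.41 and with Pecam1 and Vwf at 0 peaks. Stromal promoters were called in 5 and 4 against 5 and 4 of 5, with sums of 70.4 and 33.9 against 40.7 and 23.9. Over all 30930 genes with a start outside the inputs, 14394 and 12272 promoters were called in the Thy1+ libraries, against 13391 and 11729 in those of c-Kit+ cells. Summed fold enrichments over all promoters were 227400 and 133600 (Thy1+) against 142000 and 101300 (c-Kit+), and they overlapped. None of the sums is centred, and the Thy1+ sum was the larger over all promoters at each replicate number. The sums of the 2 fractions did not overlap for peritubular myoid, macrophage and blood, and endothelial promoters, and they overlapped for Sertoli, Leydig and stromal ones. These counts and sums were not tested, nor was the part of these cells in the results below.

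**Figure D1:**
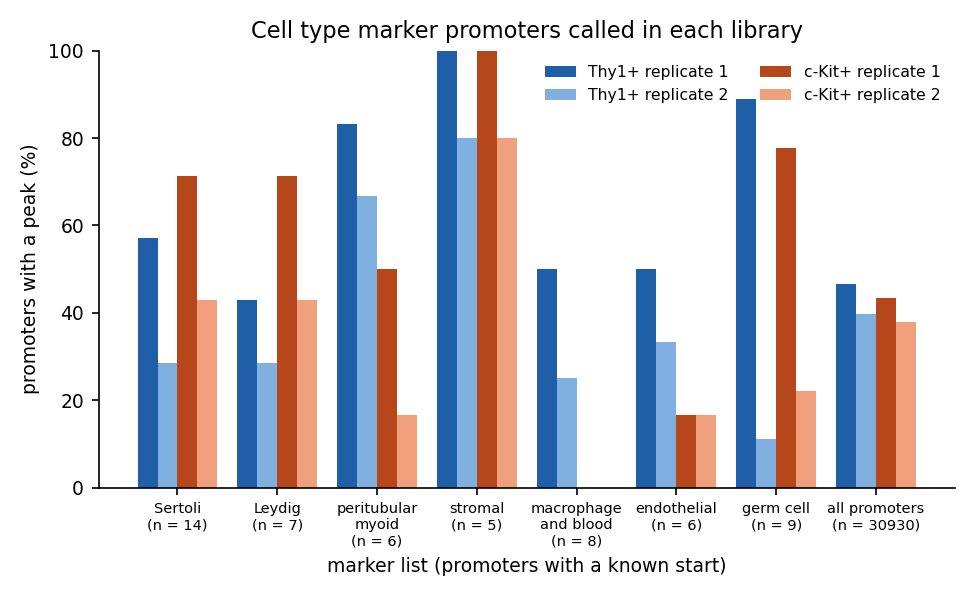
Share of marker promoters with a peak (y, percent) for 7 marker lists and for all promoters (x), 1 bar per library, with the number of promoters under each list. Sertoli and Leydig cell promoters were called more often in the c-Kit+ library of each replicate number, but across numbers the fractions overlapped (Sertoli) or met (Leydig). Peritubular myoid, macrophage and blood, endothelial, and all promoters were called more often in the Thy1+ library of each number. Germ cell promoters were called mainly in replicate 1 of each fraction.

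The genes that define the sorts and the stem cell state gave few calls. At the Kit promoter, the fold enrichment was 6.58 in Thy1+ replicate 1, with no peak in replicate 2, and the c-Kit+ libraries stood at 8.99 and 4.66, so these lay on both sides of the single Thy1+ value. These are the highest peaks within 1000 bp of any listed start, and over the printed window c-Kit+ replicate 2 stood at 3.5. The Kit intron region 1519 bp from the start, named below, has the same 4.66 in c-Kit+ replicate 2, so the 2 may be 1 peak. Id4, a transcriptional inhibitor of stem-like spermatogonia, had a promoter peak at 6.58 and 3.84 in Thy1+ cells and at 3.78 in c-Kit+ replicate 1. Zbtb16 (PLZF, a factor of undifferentiated spermatogonia), Sall4 and Dmrt1, germ cell transcription factors, and Sohlh1, a factor of differentiation, were each called in replicate 1 of both fractions and in neither replicate 2. Gfra1, the GDNF co-receptor, was called in Thy1+ replicate 1 alone at 3.54, and so was Lin28a, at 5.06. Stra8, the retinoic acid target of meiotic entry, was called in c-Kit+ replicate 1 alone at 3.78. Nanos2, Nanos3, Neurog3, Sohlh2 and Thy1 had no promoter peak in any of the 4 libraries. Scml2 itself had a promoter peak at 6.08 in Thy1+ replicate 1 and 4.26 in c-Kit+ replicate 1, which measures a mark at its start and does not check the genotype.

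At promoters called in all 4 libraries, the fractions were compared on log2 fold enrichment, with the median of every library set to 0. The centring removed a shift of -0.50 between the fractions, since the median region stood at a log2 fold enrichment of 3.97 and 3.26 in the Thy1+ libraries, against 3.31 and 2.92 for c-Kit+. Etv5, a GDNF-responsive factor, stood at 16.2 and 8.95 against 9.93 and 8.16, a centred log2 difference of 0.08 ± 0.21 (SE). Ccnd2 (cyclin D2) differed by -0.39 ± 0.21 and Rarg, the retinoic acid receptor of spermatogonia, by 0.11 ± 0.23. Dnmt3b, the de novo DNA methyltransferase, stood at 11.1 and 7.04 against 11.8 and 8.16, a difference of 0.65 ± 0.21 with an unadjusted p of 0.00812 and an adjusted p of 0.27 in limma. None of these genes passed the threshold of an adjusted p under 0.05.

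The whole comparison covered 10942 regions called in all 4 libraries, out of 50909 regions outside the inputs. By limma, 0 regions had an adjusted p under 0.05 (percent called 0), and the lowest adjusted p was 0.144. An unadjusted p under 0.05 was found for 1221 regions, of which 842 were higher in c-Kit+ cells (7.70% of those tested) and 379 lower (3.46%). Both c-Kit+ libraries lay above both Thy1+ libraries at 2502 regions (22.9%) and below them at 2041 (18.7%). The balance of directions followed the scaling: quantile normalization gave 620 higher and 511 lower, and values without centring gave 3 higher and 783 lower. It also followed single libraries, since leaving out Thy1+ replicate 1 gave 327 higher and 753 lower. Leaving out Thy1+ replicate 2 gave 929 regions past the adjusted threshold, 882 of them higher in c-Kit+ cells, with Thy1+ replicate 1 then assumed to vary like the c-Kit+ libraries. Leaving out any of the other 3 libraries gave 0, and 3 other fits gave between 4 and 127 regions past the threshold.

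**Figure D2:**
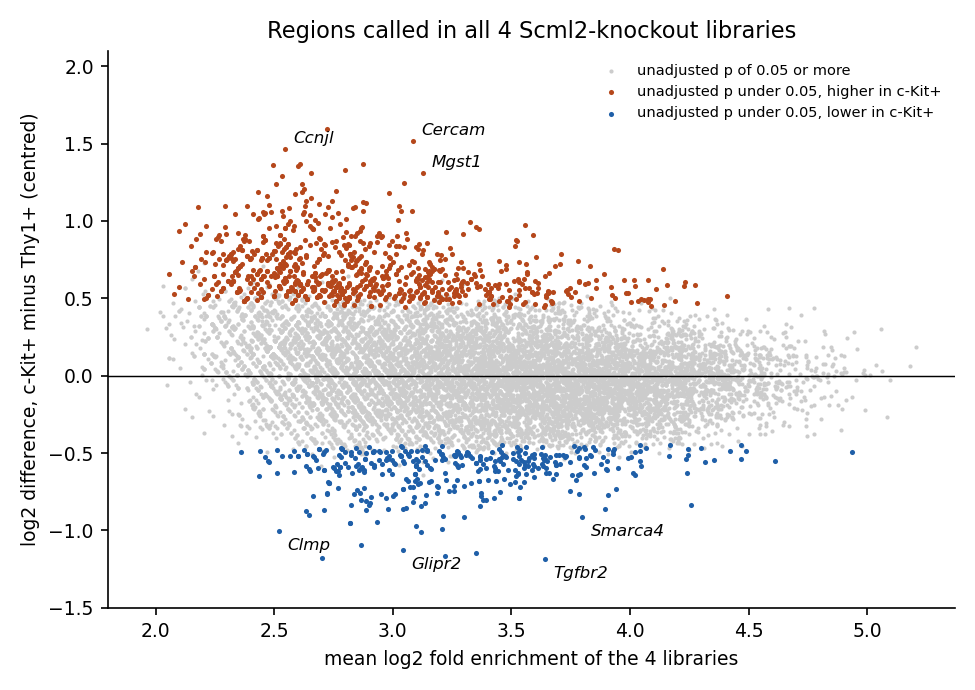
Centred log2 difference between c-Kit+ and Thy1+ cells (y) against the mean log2 fold enrichment of the 4 libraries (x), for the 10942 regions called in all 4. Of these, 842 (red) and 379 (blue) had an unadjusted limma p under 0.05, none passed after adjustment, and the largest positive differences lie at regions of low enrichment.

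The 12 regions with the smallest p in the direction of c-Kit+ cells lay mostly outside promoters (7 in introns, 2 upstream, 1 in an exon and 2 at promoters). Their centred log2 differences ran from 1.09 to 1.52, and all had an adjusted p of 0.144. An intron region of Ccnjl, a cyclin J-like gene (chr11:43548211-43550243, mm10), stood at 4.56 and 3.84 in the Thy1+ libraries, against 10.4 and 6.41 for c-Kit+, a difference of 1.47 ± 0.23. Both c-Kit+ values there lay above both Thy1+ values before centring as well as after. The promoter region of Mgst1 (chr6:138140114-138142126), which holds the window printed above, stood at 7.59 and 5.76 against 12.8 and 10.5, a difference of 1.31 ± 0.21. That of Slc25a34 (chr4:141622579-141624438) stood at 4.56 and 4.48 against 8.99 and 7.58, a difference of 1.37 ± 0.25. The c-Kit+ libraries were the higher pair at both of these CpG-poor promoters, as the rule that chose the regions required after centring.

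An exon region of Cercam, a cell adhesion molecule gene (chr2:29879977-29881346), had the largest difference of the 12, at 1.52 ± 0.28, with 5.57 and 6.40 against 15.6 and 9.33. An intron of Rai14, which encodes an actin-binding ankyrin repeat protein (chr15:10684756-10686932), stood at 5.06 and 4.48 against 8.99 and 7.00. Intron regions of Dmd (dystrophin), Slmap (a membrane-anchored protein of muscle), Pitpnm2 (phosphatidylinositol transfer) and Wdr93, and a region upstream of Tectb (β-tectorin), were also among them. At 11 of the 12 the c-Kit+ values were above both Thy1+ values without centring.

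The 12 regions with the smallest p in the other direction were mostly promoters, 9 of them, with 3 intergenic regions. Their differences ran from -1.19 to -0.91, with adjusted p from 0.144 to 0.170, and the c-Kit+ values were below both Thy1+ values at all 12 without centring. The Tgfbr2 promoter (chr9:116173966-116176093) stood at 25.3 and 19.8 in the Thy1+ libraries, against 7.57 and 6.41 for c-Kit+, a difference of -1.19 ± 0.22. The Glipr2 promoter (chr4:43957068-43958809) stood at 18.2 and 11.5 against 4.73 and 4.66, a difference of -1.12 ± 0.22. The Smarca4 promoter, of the gene for the BRG1 ATPase of SWI/SNF remodellers (chr9:21615266-21617101), stood at 28.9 and 17.9 against 10.4 and 7.00, a difference of -0.91 ± 0.21. Thy1+ replicate 1 held the highest value at each of these 3 promoters. The 2 fractions did not overlap there, but the rule that chose the regions required separated libraries after centring.

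Among the other promoters of this direction, Clcf1, a cytokine of the interleukin-6 family, stood at 24.3 and 13.4 against 5.20 and 6.41. Smtn (smoothelin, of smooth muscle) stood at 15.7 and 10.2 against 3.78 and 4.66. Clmp (an adhesion molecule), Mical1 (an actin-oxidising enzyme), Metrnl (a secreted factor) and Tmem189 (plasmalogen synthesis) completed the promoters. The intergenic regions had Mir100, Trak1 (a mitochondrial transport adaptor) and Col5a1 (a fibrillar collagen) as nearest genes, 56241, 52211 and 112246 bp upstream of the start respectively. Mir100 differed by -1.18 ± 0.21, with values of 15.2 and 8.95 against 3.78 and 3.50.

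**Figure D3:**
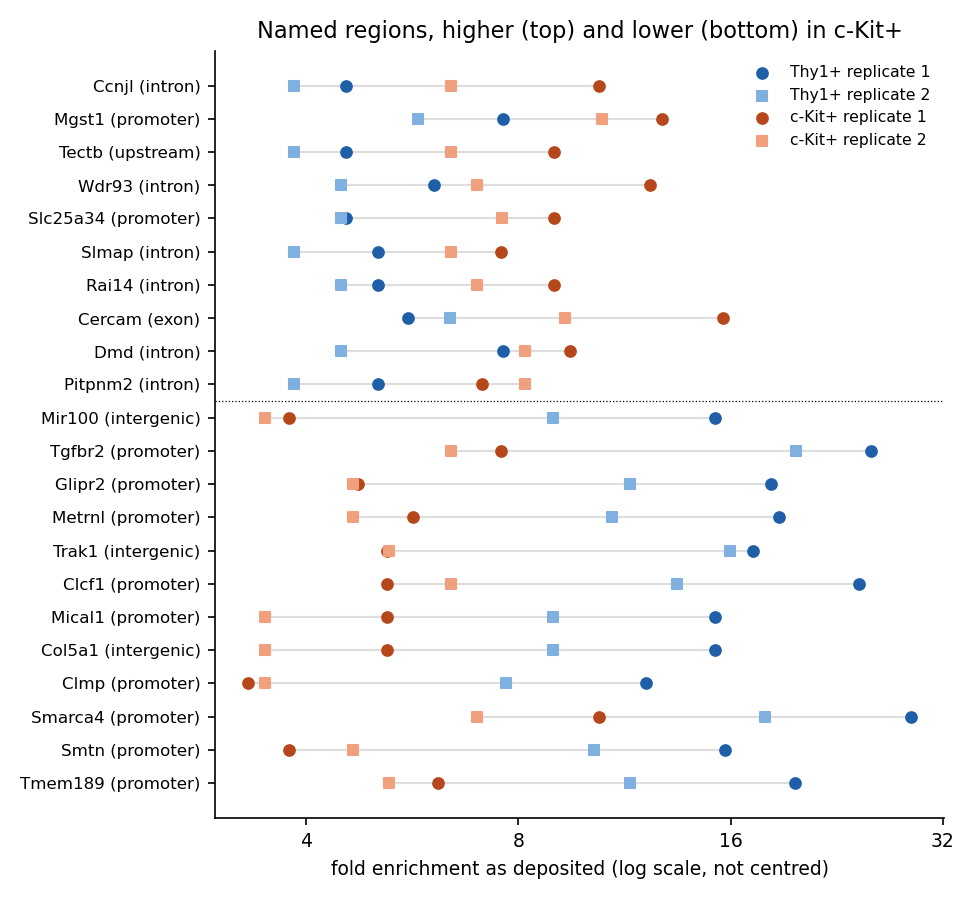
Fold enrichment as deposited (x, log scale) in each of the 4 knockout libraries at 22 of the 24 regions (y), 10 higher in c-Kit+ cells above the dotted line and 12 lower below it. The fractions do not overlap at any region plotted, but the rule that chose the regions required separated libraries after centring. In the lower block Thy1+ replicate 1 is the highest library at every region.

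Calls were compared next, since most regions were absent from at least 1 library. Both c-Kit+ libraries and neither Thy1+ library called 1369 regions (2.69% of 50909), and both Thy1+ libraries and neither c-Kit+ library called 1384 (2.72%). The numbers were alike, but they depended on the threshold: with a fold enrichment of at least 5 they were 309 and 1449. A further 30295 regions were called in 1 library only, 13604 of them in Thy1+ replicate 1 and 12666 in c-Kit+ replicate 1. Without c-Kit+ replicate 2 the c-Kit+ regions numbered 14205, and without Thy1+ replicate 2 the Thy1+ regions numbered 15182. The median length was 400 bp for the c-Kit+ regions, 462 bp for the Thy1+ regions and 1536 bp for regions called in all 4. Fold enrichments were low, with medians of 4.73 and 4.66 in the c-Kit+ set and 5.57 and 5.12 in the Thy1+ set. The lowest values of any peak were 3.31 and 3.50 in the c-Kit+ libraries and 3.54 and 3.84 in the Thy1+ libraries.

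The 2 sets lay in different places. Of the c-Kit+ regions, 6.28% (86) were promoters and 55.8% (764) were in introns. Of the Thy1+ regions, 23.5% (325) were promoters and 36.6% (506) in introns. Promoters made up 29.0% of all regions, 19.0% of the regions called in exactly 2 libraries and 82.2% of the regions called in all 4. Upstream (11.2% and 12.2%), intergenic (19.5% and 20.8%) and exon (7.16% and 6.94%) shares were close in the 2 sets, and the X chromosome held 9 regions of each. Counted by gene, 79 promoters (0.255% of 30930) had a peak in the c-Kit+ pair alone and 318 (1.03%) in the Thy1+ pair alone. This order turned without Thy1+ replicate 1, to 529 and 373, and without c-Kit+ replicate 2, to 431 and 353, whereas it was 92 and 1375 without Thy1+ replicate 2 and 133 and 1108 without c-Kit+ replicate 1. With a fold enrichment of at least 5 the promoter shares were 11.3% and 37.1%. The promoter share of the c-Kit+ regions was 20.9% without Thy1+ replicate 1, and that of the Thy1+ regions was 16.9% without Thy1+ replicate 2. These are counts over regions of the same 4 libraries and were not tested.

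**Figure D4:**
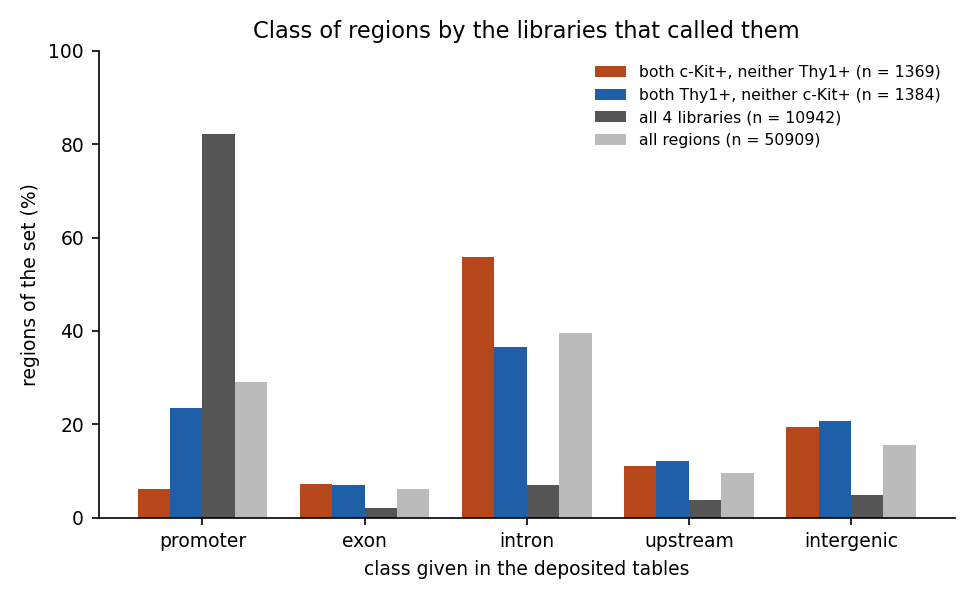
Share of regions (y, percent) in each class of location (x) for regions called in both c-Kit+ and neither Thy1+ library, the reverse, all 4 libraries, and any library. Introns hold 55.8% of the c-Kit+ regions and promoters 6.28%, against 36.6% and 23.5% of the Thy1+ regions.

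The 12 strongest c-Kit+ regions, ranked by the lower of their 2 values, had fold enrichments from 6.41 to 9.33 and included 1 promoter. This was Cpt1b, the muscle-type carnitine palmitoyltransferase that admits fatty acids to mitochondria (chr15:89425600-89426212), at 6.62 and 9.33 in the c-Kit+ libraries and with no peak in either Thy1+ library. A region 13273 bp upstream of Pdk4, the kinase that inhibits pyruvate dehydrogenase (chr6:5509118-5510324), stood at 7.57 and 7.00. An exon region of Hsd3b1, the steroid dehydrogenase of Leydig cells and other steroidogenic tissue (chr3:98856606-98858249), stood at 7.57 and 6.41, and an intron of the same gene was a c-Kit+ region too. The strongest of all was an intergenic region (chr17:58642951-58644448), at 8.99 and 8.16, whose nearest gene, 2610034M16Rik, starts 347466 bp away. The other 8 had Zfp648, Cdk5rap2, Mgarp with Naa15, 1700025G04Rik, Gramd1b, Dnajc18, 4930546K05Rik and D16Ertd472e as nearest genes. None of the 12 had a peak in a Thy1+ knockout library, by the rule that chose them.

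The 12 strongest Thy1+ regions had fold enrichments from 7.67 to 13.2 and included 7 promoters. Has2, a hyaluronan synthase (chr15:56692289-56693685), stood at 13.2 and 10.2 in the Thy1+ libraries and had no peak in the c-Kit+ libraries. Arhgef2, an exchange factor for RhoA (chr3:88615336-88617250), stood at 9.62 and 9.59, and Bhlhe22, a neural transcription factor (chr3:18054493-18056096), at 13.2 and 7.67. Mgat3 (N-glycan branching) stood at 11.6 and 7.67, Gfpt2 and Gse1 at 9.62 and 7.67 each, and Ssc5d (a secreted scavenger receptor) at 8.10 and 8.31. The remaining 5 had Psd2, the S100a2 to S100a5 cluster, Mmd, A4galt and Tcf23 as nearest genes. Named after their values were seen, promoters of the Thy1+ set also included Pdgfrb (9.11 and 7.04), a receptor of mesenchymal cells, Thbs2 (7.09 and 8.31), a matrix thrombospondin, and Vav3 (8.61 and 7.04), an exchange factor of immune cells. Those of the c-Kit+ set included Vcam1 (5.67 and 5.83), an adhesion molecule, and Nr1h4 (5.67 and 6.41), the bile acid receptor FXR. The promoter of Mpeg1, a gene named for its expression in macrophages, was in the c-Kit+ set too, so immune genes were found in both sets.

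Pathway lists were read at promoters and at regions assigned to the nearest gene. By nearest gene, 3.50% of all 30930 genes had a region of the c-Kit+ set and 3.75% one of the Thy1+ set. Of these 30930 genes, 14957 had a promoter peak in any of the 4 libraries and 11051 in all 4, against 26 of 31 KIT and PI3K genes in all 4. The shares of the lists were not adjusted for this or for gene length. Of 44 stem and progenitor genes with a start, 14 promoters were called in all 4 libraries, with a median centred difference of 0.09 against -0.01 over all 11101 promoters tested. None passed the adjusted threshold, and 0 were called in 1 fraction only. With an unadjusted p under 0.05, 4.84% of all tested promoters were higher in c-Kit+ cells and 3.59% lower, and 1 of these 14 was higher and 0 lower. It was Foxo1, a transcription factor restrained by PI3K signalling, at 17.2 and 8.95 against 16.1 and 9.91 (0.52 ± 0.22, adjusted p = 0.392, limma). By nearest gene, 7 Thy1+ regions were assigned to 6 genes of the list (13.6% of 44), Cd82, Ddit4, Egr3, Foxo1, Id4 and Zbtb16, and 1 c-Kit+ region to Sdc4 (2.27%). The region near Egr3, an early response factor (chr14:70074404-70075896), stood at 11.1 and 3.84, and an intron region of Zbtb16 (chr9:48736515-48737165) at 10.1 and 5.12.

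The GDNF and FGF signalling list holds ligands and receptors, adaptors, feedback inhibitors such as the Spry and Dusp genes, and target factors such as Etv5 and Egr1. Of its genes 28 had a start and 20 promoters were tested, with a median difference of 0.00. The Gdnf promoter, of the ligand that Sertoli cells and peritubular cells make for stem cells, stood at 5.57 and 5.76 against 8.51 and 6.41 (0.88 ± 0.26, adjusted p = 0.232, limma). The Fgf2 promoter stood at 16.2 and 12.2 against 6.62 and 5.83 (-0.68 ± 0.22, adjusted p = 0.273). Both pairs were separated, in opposite directions. By nearest gene, 4 genes of the list (14.3%) had a region of the c-Kit+ set and 3 (10.7%) one of the Thy1+ set. Those of the c-Kit+ set lay in introns of Fgfr2 (2 regions) and Frs2, 326616 bp upstream of the start of Gdnf and 289963 bp downstream of that of Mycn. Those of the Thy1+ set were assigned to Fgfr1 (2 regions), Egr1, 5412 bp upstream of its start, and Spry2, 152218 bp downstream. One of the Fgfr1 pair, 52868 bp upstream of the start of this FGF receptor gene (chr8:25465506-25466501), stood at 9.11 and 5.76 in Thy1+ cells.

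Of 31 genes of KIT and PI3K signalling, 26 promoters were tested (median 0.09) and 0 were called in the pair of 1 fraction alone. Besides Foxo1, Sesn1, a stress-induced inhibitor of mTORC1, had an unadjusted p under 0.05, at 19.7 and 12.8 against 9.93 and 7.58 (-0.53 ± 0.21, adjusted p = 0.381, limma). By nearest gene, 5 genes (16.1%) had regions of the c-Kit+ set, 9 in all, and 7 genes (22.6%) had 1 region each of the Thy1+ set. The receptor and its ligand held 5 of the 9. Kit had 3 regions of the c-Kit+ set: 1 in the intron 1519 bp from the start (chr5:75576114-75576569; 4.26 and 4.66), 1 in an intron 47666 bp from the start (chr5:75622452-75622962; 4.73 and 4.08), and 1 intergenic, 197305 bp upstream (chr5:75377281-75378731; 6.62 and 5.83). At Kitl, the gene of the KIT ligand that Sertoli cells make, an intron region (chr10:100016988-100017330) stood at 4.73 and 5.25 and an intergenic region at 4.73 and 4.08. Neither gene had a region of the Thy1+ set. Akt2 and Gab2, transducers below the receptor, had regions in both sets (2 and 1 in c-Kit+ and 1 each in Thy1+), and Foxo3 had 1 in the c-Kit+ set alone. Ddit4, Foxo1, Inpp5d, Sh2b3 and Pik3cd had regions in the Thy1+ set alone. That of Pik3cd, the leukocyte PI3K subunit, lay at its promoter (9.62 and 6.40), where another peak stood at 5.67 in c-Kit+ replicate 1, so the promoter as a whole was not in the set.

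Retinoic acid genes (29 with a start, 11 promoters tested, median 0.07) included 1 promoter of the c-Kit+ set, Adh1, a retinol dehydrogenase, at 4.26 and 4.08. By nearest gene, 4 genes of this list (13.8%) had a region of the c-Kit+ set and 3 (10.3%) one of the Thy1+ set. Cyp26b1, the enzyme that degrades retinoic acid in the fetal and young testis, had 3 intron regions in the c-Kit+ set. The longest (chr6:84584894-84585804) stood at 5.67 and 5.83. Aldh1a1, which makes retinoic acid in Sertoli cells, had 1, at 3.31 and 4.08. Rxra, a nuclear receptor partner, had 4 intron regions in the Thy1+ set, from 4.05 to 5.57 in replicate 1 and from 3.84 to 4.48 in replicate 2, and the binding protein Crabp2 had 1. Among 43 differentiation and meiotic entry genes, 10 promoters were tested (median -0.11), with Dnmt3b higher and Hspa2, a testis heat shock protein, lower at unadjusted p (-0.54 ± 0.25, adjusted p = 0.446).

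Hox genes, which set position along the body axis, had 3 promoters in the Thy1+ set. Of 37 with a start, 20 and 7 were called in the Thy1+ libraries, against 6 and 4 for c-Kit+, and Hoxa3 (6.08 and 4.48), Hoxb4 (8.61 and 3.84) and Hoxc10 (8.61 and 3.84) had a promoter peak in both Thy1+ libraries only. Those 3 make 8.11% of the list, against 1.03% of all promoters, and 0 were in the c-Kit+ set. The 3.84 at Hoxb4 and at Hoxc10 is the lowest fold enrichment of any peak in Thy1+ replicate 2, so both calls lay at the caller's threshold there. Thy1+ replicate 1 stood apart from the other 3 libraries in these counts. Polycomb genes (31 promoters tested, median -0.05) had no member at an unadjusted p under 0.05 and no promoter in either set. Of 38 cell cycle promoters tested (median 0.00), Mcm2, a subunit of the replicative helicase, was higher (0.62 ± 0.27, adjusted p = 0.412), and Mcm3, another subunit, and Cdc6, a loader of the helicase, were lower (-0.48 ± 0.22 and -0.47 ± 0.21, adjusted p = 0.436 and 0.429) at unadjusted p.

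WNT and TGF-β signalling gave 41 tested promoters with a median of 0.05. Among ligands, Bmp2 stood at 6.08 and 5.12 against 8.04 and 5.25 (0.98 ± 0.23, adjusted p = 0.175, limma), and Wnt2b had a promoter peak in Thy1+ cells only, at 4.05 and 5.12. Among receptors, Tgfbr1 (0.66 ± 0.27, adjusted p = 0.381) and Acvr2b (0.53 ± 0.22, adjusted p = 0.381) were higher in c-Kit+ cells and Tgfbr2 and Fzd7 (-0.51 ± 0.23, adjusted p = 0.443) lower, all at unadjusted p alone. The 2 TGF-β receptor subunits thus had differences of opposite sign. By nearest gene, 8 genes of the list (10.1%) had regions of the c-Kit+ set, 13 in all, and 8 (10.1%) had regions of the Thy1+ set, 12 in all. Ctnnb1 and Tgfbr3 had regions in both sets. Smad3, the signal transducer of TGF-β, had 3 neighbouring regions in the c-Kit+ set (chr9:63661713-63663905 in all). Smad6, an inhibitor of BMP signalling, had 2 in the Thy1+ set, 1 of them intergenic, 227880 bp downstream of its start.

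Regions assigned to somatic marker genes were also counted, against the 3.50% and 3.75% of all genes given above, with no test. The c-Kit+ set held 5 regions, 0 of them promoters, assigned to 4 Leydig cell genes (57.1% of 7), namely Cyp11a1, Hsd3b1 (2 regions), Lhcgr and Nr5a1, and 2 assigned to the Sertoli cell genes Gata4 and Cldn11 (14.3% of 14), and the Thy1+ set held 0 for either list. The Cyp11a1 region, upstream of the gene for the first enzyme of steroid synthesis (chr9:58008762-58009152), stood at 6.15 and 4.08. At promoters, Lhcgr, the luteinizing hormone receptor, stood at 5.57 and 4.48 against 8.04 and 5.83 (0.96 ± 0.22, adjusted p = 0.170, limma). The Thy1+ set held 7 regions assigned to the stromal genes Col1a1 (4 regions), Col1a2 (2 regions) and Pdgfra (60% of 5 genes). It held 4 for Des, Tagln and Myh11 of peritubular myoid and smooth muscle cells (50% of 6 genes), and 5 for the leukocyte genes Ptprc, Laptm5, Csf1r and Spi1 (50% of 8 genes). Of these 16 regions, 6 were promoters, at Col1a1, Pdgfra, Des, Tagln, Laptm5 and Ptprc, and 10 were not. Other peaks at the Col1a1 and Pdgfra promoters were called in c-Kit+ replicate 1, where all 5 stromal promoters had a peak. As a whole, 0 stromal promoters were therefore in the Thy1+ set. The c-Kit+ set held 0 for those 3 lists. The longest region, 53857 bp upstream of the start of Col1a1, the type I collagen chain (chr11:94881110-94883836), stood at 10.1 and 6.40. Endothelial and germ cell markers had no region of either set nearby.

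The wild-type libraries were read at the regions chosen in the knockout. Of the 1369 c-Kit+ regions, 56.1% and 26.5% were called in the 2 wild-type c-Kit+ libraries and 2.34% and 2.92% in the 2 wild-type Thy1+ libraries. Over all 50909 regions, the shares were 38.3% and 26.6% in c-Kit+ and 27.7% and 24.7% in Thy1+ libraries. Of the 1384 Thy1+ regions, 31.9% and 22.0% were called in wild-type Thy1+ and 21.2% and 7.59% in wild-type c-Kit+ libraries. By the same rule applied to the wild type, 256 of the c-Kit+ regions (18.7%) were c-Kit+ regions there and 1 was a Thy1+ region, while 86 of the Thy1+ regions (6.21%) were Thy1+ regions there and 17 had the opposite pattern. Over all 50909 regions, 2.92% were c-Kit+ regions of the wild type and 0.664% Thy1+ regions. All 12 of the strongest c-Kit+ regions were called in both wild-type c-Kit+ libraries, and 1 and 1 in the wild-type Thy1+ libraries. Of the 12 strongest Thy1+ regions, 12 and 8 were called in the wild-type Thy1+ libraries, and 7 and 1 in the wild-type c-Kit+ libraries. At the promoter of Mgst1 the wild-type values were 4.19 and 4.22 (Thy1+) against 12.5 and 7.44 (c-Kit+), and at that of Slc25a34 there was no Thy1+ peak against 9.12 and 8.68. The Tgfbr2 promoter was less separate in the wild type, at 16.2 and 9.05 against 6.84 and 8.68. The wild-type fractions overlapped at the Glipr2 promoter, at 9.43 and 8.45 against 9.12 and 4.96, and at that of Smarca4, at 11.004 and 8.45 against 10.3 and 12.4.

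Signal strength pointed the same way at regions called in all 8 libraries. Of the 505 such regions that were higher in knockout c-Kit+ cells at unadjusted p, 81.6% were also higher in wild-type c-Kit+ cells, with a median centred wild-type difference of 0.26. Of 347 that were lower, 75.5% were lower in the wild type, with a median of -0.18. Over all 9427 regions 53.0% were higher and 47.0% lower, with a median of 0.02. The differences of the 2 genotypes had a Pearson's r of 0.36 across these regions, which share the libraries and are not independent. The difference between the genotypes was tested as an interaction in limma, over 9424 regions of the 8 libraries together: 0 had an adjusted p under 0.05 (percent called 0), and 415 had an unadjusted p under 0.05. Regions not called in all 8 libraries, the 1369 and 1384 of the call sets among them, had no such test.

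**Figure D5:**
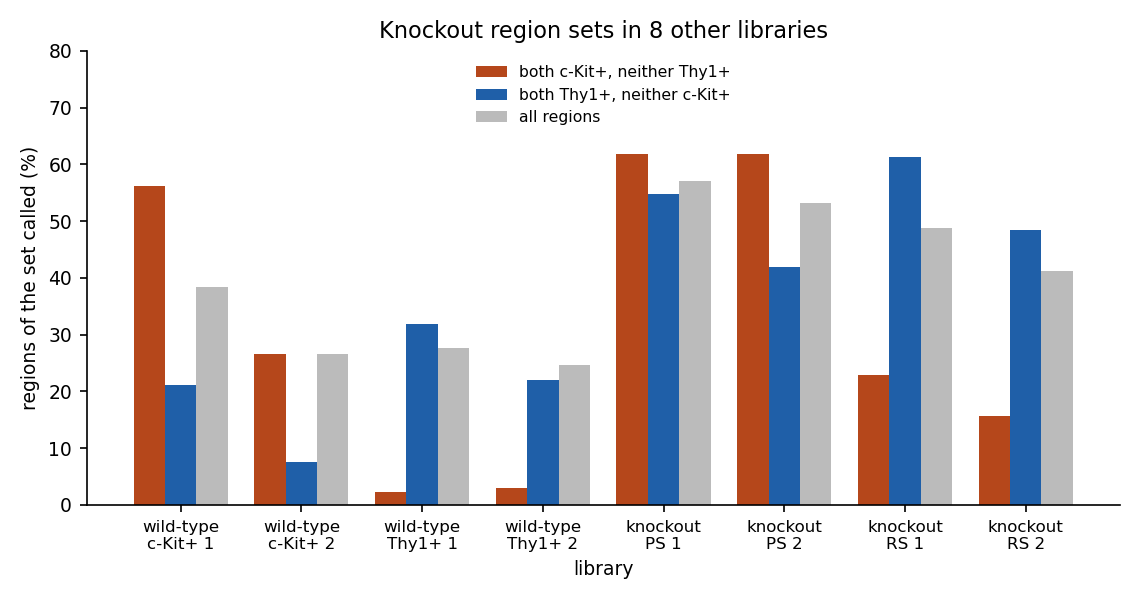
Share of the knockout c-Kit+ regions, Thy1+ regions and all regions (y, percent) that were called in each of 8 other libraries (x; PS, pachytene spermatocytes; RS, round spermatids). The c-Kit+ regions were called at 2.34% and 2.92% in wild-type Thy1+ libraries and at 56.1% and 26.5% in wild-type c-Kit+ libraries, and in the adult libraries the c-Kit+ regions were called most often in spermatocytes and the Thy1+ regions in RS replicate 1.

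The 2 sets were also read in adult knockout cells. Of the c-Kit+ regions, 54.3% were called in both pachytene spermatocyte libraries and 12.1% in both round spermatid libraries. Of the Thy1+ regions, 38.4% were called in both spermatocyte libraries and 45.9% in both spermatid libraries. Over all regions the shares were 48.7% and 38.9%, and over the 6333 regions called in exactly 2 of the 4 libraries they were 52.8% and 34.3%. Requiring an enrichment of 5 or more moved the shares to 77.0% and 19.7% for the c-Kit+ regions and 60.7% and 61.6% for the Thy1+ regions. For the Thy1+ regions the order of the shares turned without c-Kit+ replicate 1, to 58.8% and 56.7%, and without Thy1+ replicate 2, to 28.4% and 28.1%. For the c-Kit+ regions the spermatocyte share was the larger without any 1 library, but it was 30.6% without c-Kit+ replicate 2, and the spermatid share was 32.4% without Thy1+ replicate 1. Outside promoters the shares were 53.1% and 10.8% of the c-Kit+ regions, 34.6% and 41.5% of the Thy1+ regions and 33.9% and 22.1% of all regions, so the spermatocyte share of the Thy1+ regions was near that of all regions. At the single-gene level, the leukocyte gene Laptm5, whose promoter was called in Thy1+ cells only (9.62 and 6.40), stood at 21.1 and 15.7 in round spermatids, and Spi1, Cd68 and Ptprc were also called in both spermatid libraries. Sertoli cell promoters Clu, Amh and Defb19 were called in both spermatocyte libraries, Clu at 14.5 and 17.6. Marker promoters of somatic cells were therefore present in the adult libraries too, and their part in these shares was not tested.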

How the data were processed

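H3K27ac was profiled by ChIPmentation in the 4 libraries compared, and each had its own deposited table of peaks. Alignment with Bowtie to mm10 and peak calling with MACS2 are named in the submitters' processing notes, without versions. Per the file headers, the tables give for each summit a signal height (pileup), a fold enrichment (a ratio of height to a background) and −log10 p and −log10 q values from the authors' peak caller, which were used only through the peaks' presence. In each library the deposited fold enrichment equalled (height + 1) over (background + 1) with 1 constant background, so no local or input control enters it. Read depth is unknown, so no counting interval was computed.

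The highest summit represented each peak, mitochondrial peaks were dropped, and peaks overlapping by at least 1 bp were merged into 51699 regions. Of these, 790 overlapped a peak of any of 16 input libraries (359 to 1192 peaks each) and were removed. Regions called in all 4 libraries were tested on log2 fold enrichment, centred per library on its median, with limma 3.58.1 (lmFit, eBayes, R 4.3.3) and Benjamini-Hochberg adjustment over all regions tested at 0.05; the fit was tested on simulated data. Classes of location are the authors'. A promoter peak lay within 1000 bp of a start listed in the tables or in RefSeq promoter windows, and starts of several genes that share a promoter are counted for each. Ret, Tex11, Mcm4, Hoxb6, Hoxc12, Wnt8a, Dnmt3c, Lum and Dppa3 had no start and are not analysed here.

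Named regions were the 12 of smallest p in each direction with separated libraries after centring, the 12 of each call set with the highest lower fold enrichment, list members with an unadjusted p under 0.05 or a call in 1 fraction only, and a fixed set of spermatogonial genes; a few of these are not reported here. Members, lists and rules were chosen with earlier results of these data known. Shares of regions in other libraries and the wild-type directions were added to the list of alternatives after seeing the data. Other values were computed with scipy 1.17.1, pandas 2.3.3 and numpy 2.4.6 under Python 3.11.15.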

Additional observations from a re-analysis of the deposited data

How the results depend on the processing

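With 2 libraries per fraction and no read depth, small differences could not be resolved, and at low heights a call turns on the caller's threshold. The interaction gave 0 regions under each alternative run. The number of regions past the adjusted threshold, 0 by limma as described, was 17 (14 higher, 3 lower) with the replicate number as a block, 4 with a variance trend and 127 (85 higher, 42 lower) with missing calls filled by a library's lowest value; it ranged from 0 to 929 over the fits that leave out 1 library. In a check of the pairing, the deviations of same-numbered libraries correlated at 0.11 over regions, with only 2 pairs, and the replicate block changed no other call. The cause of these changes was not tested. All 24 tested regions chosen by the rule kept their direction in each alternative that gave a value, which the rule's demand for separated libraries fixes in part, and 14 passed with the block, 4 with the trend, 20 with missing calls filled and 24 without Thy1+ replicate 2.

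With a fold enrichment of at least 5, the c-Kit+ regions numbered 309 and the c-Kit+ and Thy1+ promoters 35 and 563. Leaving out 1 library gave 1457 to 14205 c-Kit+ regions, 1528 to 15182 Thy1+ regions, 92 to 529 c-Kit+ promoters and 353 to 1375 Thy1+ promoters, with the c-Kit+ promoters the more numerous without Thy1+ replicate 1 and without c-Kit+ replicate 2, in part by construction, since 1 library then decides a fraction's call. For the c-Kit+ regions, a fold enrichment of at least 5 and an equal number of strongest peaks in every library gave promoter shares of 11.3% and 9.47%, shares in both spermatocyte libraries of 77.0% and 66.3% and in both spermatid libraries of 19.7% and 18.1%. For the Thy1+ regions these were 37.1% and 30.3%, 60.7% and 51.5%, and 61.6% and 55.4%. Leaving out 1 library, the same 3 shares ranged from 6.66% to 20.9%, 30.6% to 69.0% and 10.95% to 32.4% (c-Kit+), and from 16.9% to 34.1%, 28.4% to 58.8% and 28.1% to 56.7% (Thy1+). The mean share called in wild-type c-Kit+ minus wild-type Thy1+ libraries was 38.7 points for c-Kit+ regions (65.2 with a fold enrichment of at least 5; 12.5 to 39.2 leaving out 1 library) and -12.6 for Thy1+ regions (-11.0 to -0.52 leaving out 1 library). The wild-type agreement in direction was 85.95% (higher) and 69.5% (lower) with missing calls filled, 76.0% (higher) with input regions kept, 69.6% (lower) without centring, and 73.4% to 84.8% and 64.2% to 75.9% leaving out 1 library.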
